A study of Rattus norvegicus with 6 samples.

Results

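Expression of the neurotrophin genes Bdnf and Ntf3, of the related trophic factors Gdnf and Cntf, and of the receptors Ntrk2, Ntrk3, Ngfr and Sort1 was followed in rat hippocampus after permanent closure of the arteries that feed the forebrain. The set of genes was drawn up with earlier results of these data known, and its probes were found by gene name or accession. The 8 genes were read by 13 of the 30367 probes on the arrays, which named 17452 genes in all. Hippocampal RNA of male Wistar rats (spelled Wister in the labels' strain field) was pooled and measured on 6 one-colour arrays. The groups were a control and animals taken 21, 35, 45, 55 or 70 days after double ligation of both common carotid arteries under isoflurane (BCCAo in the labels), each with 1 array. Labelled ages were 12 weeks for the control and 13, 14, 15, 16 and 17 weeks for days 21, 35, 45, 55 and 70. These ages do not keep pace with the days elapsed, and every description says that the rats were 12 weeks old. Neither the number of animals in a pool nor a sham operation of the control rats is stated in the labels. The dye is labelled Cy5, but the values used come from the green channel, the one colour that the files hold.

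Neurotrophins are secreted proteins, made as precursors, that regulate survival, growth and synaptic strength of neurons. BDNF acts through the receptor tyrosine kinase TrkB, encoded by Ntrk2, and neurotrophin-3, encoded by Ntf3, mainly through TrkC, encoded by Ntrk3. The p75 receptor encoded by Ngfr binds every neurotrophin, and with sortilin, encoded by Sort1, it binds their unprocessed precursors. GDNF and CNTF belong to other families of trophic factors and signal through the receptor Ret and through a cytokine receptor complex. In the adult hippocampus Bdnf is made by excitatory neurons in an activity-dependent way, while Cntf is a product of astrocytes.

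The 60-base probes decide which part of each transcript was read, so the sequences that carry the main readings are shown, from 5′ to 3′ on the transcript strand, with positions in build rn4. The Bdnf probe lies on the plus strand at chr3_random:979381-979440, and its last 30 bases hold a polyadenylation signal hexamer, in capitals. Its place relative to the transcript end was not checked, since no transcript sequence was at hand. The Ntf3 probe (chr4:162436573-162436632, minus strand) lies in coding sequence. The Gdnf probe (chr2:57423957-57424016, plus strand) ends on the stop codon, in capitals. The Ntrk2 probe at chr17:11496095-11496154 on the minus strand and the Ntrk3 probe at chr1:134081453-134081512 on the minus strand also lie in coding sequence, and the first of them reads only the long receptor form with the kinase domain. The longest run of bases that any of the 13 probes shared with a probe of another member was 10.
Bdnf: tctgagagacgttagtcaaacaAATAAAag
Ntf3: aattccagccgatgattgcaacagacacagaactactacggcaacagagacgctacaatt
Gdnf: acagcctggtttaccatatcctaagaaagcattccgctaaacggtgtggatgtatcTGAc
Ntrk2: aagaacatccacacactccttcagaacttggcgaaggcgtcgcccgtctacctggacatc
Ntrk3: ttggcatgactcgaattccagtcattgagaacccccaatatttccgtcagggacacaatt

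Signals below are normalised intensities, scaled so that the 75th percentile of each array is 1000, and a difference is the log2 signal of a day less that of the control array. With 1 array per group there is no replicate error and no test, so each difference describes 1 pool against another. For the probes printed at 10 places on each array, the spread over those spots gives the technical error. For the other probes the spot SD of such probes with like signal stands in for it. Control, day 21 and day 35 lay on one slide and days 45, 55 and 70 on another, so slide and time cannot be told apart in comparisons of the last 3 days with the control. Each array had between 12665 and 13719 genes well above background, and its unscaled 75th percentile was 1243 to 1504 intensity units.

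None of the members differed from the control by 2-fold on any day. At day 21, 0 of the 6 members with a difference were past 2-fold in either direction, against 3.6% of 13894 genes higher and 1.88% lower. For day 35, also with 0 of 6 members, the shares of all genes were 0.446% higher and 1.13% lower. Day 45, with 0 of 6 members, had 0.597% higher and 5.74% lower. Day 55, with 0 of 7 members, had 0.653% higher and 4.96% lower, and day 70, with 0 of 6, had 0.664% higher and 6.66% lower. At 1.5-fold there were likewise 0 members on each day, but Bdnf and Cntf at day 21 lay so near that limit that the setting decides. Bdnf passed it with quantile normalization (-0.62), median scaling (-0.59) and the mean of the other arrays as baseline (-0.59). Cntf passed it with that baseline (0.62) and with the percentile taken over probes detected on all arrays (0.59). The shares of all genes past 1.5-fold, higher and lower, were 7.73% and 5.4% for day 21, 1.51% and 4.24% for day 35, 1.19% and 12.7% for day 45, 1.69% and 11% for day 55, and 1.38% and 13.3% for day 70. Bdnf and Cntf came closest to that limit, both at day 21 and in opposite directions. The members' median difference was -0.21 at day 21, -0.08 at day 35, -0.02 at day 45, -0.05 at day 55 and 0.07 at day 70. The median of all genes was -0.07, -0.04, -0.06, -0.04 and -0.04 on the same days. At day 21, 5 of the 6 measured members lay below the control, each read from its probe with the highest mean, and Cntf was the exception. The share of all genes below the control was not counted, but their median also lay below it. Of the probes not used here, that of Sort1 (0.24) and 1 of Ntrk2 (0.13) lay above the control. The others, of Ntrk2 (-0.29 and -0.24) and Ntrk3 (-0.39), lay below it.

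Bdnf was lower at day 21 than on every other array. Its signal was 229 in the control, 153 at day 21, 227 at day 35, 232 at day 45, 214 at day 55 and 252 at day 70. The 10 spots at day 21 ran from 142 to 160, and the lowest spot of any other array was 191, so day 21 did not overlap any of them. Spots of a probe are repeats of 1 pool on 1 array, so this gap is set against technical error only. In the control the spots ran from 203 to 297, and the control overlapped days 35, 45, 55 and 70. The SD over spots was 0.15 log2 units in the control and 0.05 at day 21. The difference from the control was -0.58 at day 21 (0.668-fold), with a technical SD of 0.05 for the difference of spot means. It was -0.01 at day 35, 0.02 at day 45, -0.10 at day 55 and 0.14 at day 70. At day 21, 757 of 13894 genes (5.45%) had a lower difference than Bdnf. Day 35, on the slide that also held day 21, was 0.57 above day 21. A lower signal in whole tissue can come from fewer cells that make the RNA or from less RNA per cell, and these cannot be told apart here.

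**Figure D1:**
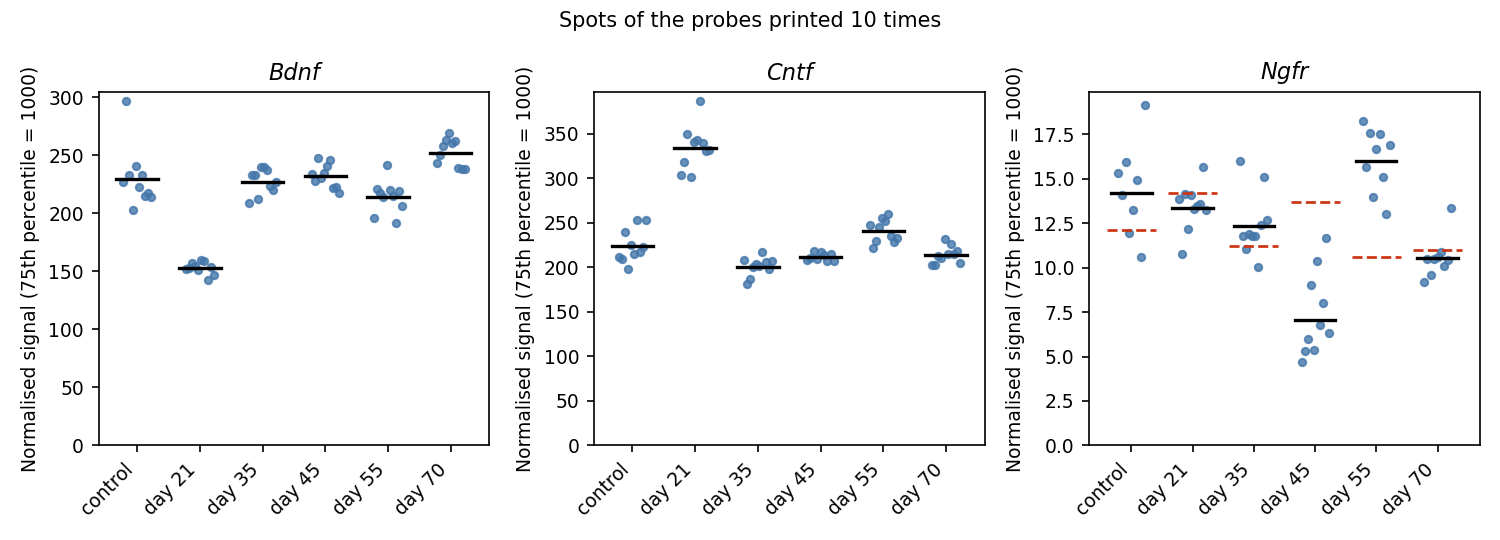
Each point is the normalised signal of 1 spot of the probe for Bdnf, Cntf or Ngfr (75th percentile of each array set to 1000), by array, and black bars are means over spots. In the Ngfr panel the red dashes mark the lowest signal well above background on each array. The Bdnf spots at day 21 lie below, and the Cntf spots at day 21 above, all spots of the other arrays. Spots of an array are repeats of 1 pool.

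Ntf3, the ligand of TrkC, varied less. Its single spot read 166 in the control, 146 at day 21, 195 at day 35, 191 at day 45, 158 at day 55 and 187 at day 70. Days 21 and 55 were the low arrays and days 35, 45 and 70 the high ones, with the control between them. The differences from the control were -0.18, 0.24, 0.20, -0.06 and 0.18 in order of time, with a technical SD near 0.10 each. Only the difference at day 35 was more than 2 technical SD from 0. It lay within the SD of 0.26 that genes of like signal had in their day 35 differences.

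Gdnf was not well above background on any array, so no difference is given. Its values ran from 3.71 at day 45 to 16.0 in the control. The lowest signals counted as well above background were 10.6 to 14.2 by array. The readings of days 21, 35, 45 and 70 lay below that of their own array. Those of the control (16.0 against 12.1) and of day 55 (13.3 against 10.6) lay above it, although these spots were not marked as well above background.

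Cntf was higher at day 21 than on every other array. Its signal was 224 in the control, 334 at day 21, 201 at day 35, 212 at day 45, 240 at day 55 and 213 at day 70. Spots ran from 302 to 386 at day 21 and from 199 to 253 in the control, and the highest spot of the other days was 260. Here too the spots are repeats of 1 pool on 1 array. The SD over spots was 0.12 log2 units in the control and 0.10 at day 21. The difference was 0.58 at day 21 (1.49-fold, technical SD 0.05 for the difference of spot means), and 1090 of 13894 genes had a larger one. It was -0.16 at day 35, -0.08 at day 45, 0.10 at day 55 and -0.07 at day 70. Within the first slide, day 35 lay 0.73 below day 21 (log2 difference of day 35 minus day 21: -0.73).

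Among the receptors, Ntrk2 was read by 4 probes, which did not move together. TrkB exists as a full-length kinase and as truncated forms without the kinase, and the files assign the probes to transcript variants 1, 2 and 3. The variant 1 probe in coding sequence, printed above, read 1385 in the control, 1133 at day 21, 1538 at day 35, 1574 at day 45, 1397 at day 55 and 1501 at day 70. Day 21 was its lowest array, with a difference of -0.29 (technical SD 0.08), and days 35 and 45 were 0.15 and 0.18 above the control. Genes of like signal had an SD of 0.30 in their day 21 differences. The second variant 1 probe, which stands for the gene in the counts because it had the highest mean, lies downstream at chr17:11495183-11495242. It read 9883 in the control, 8784 at day 21, 8363 at day 35, 7682 at day 45, 10449 at day 55 and 9959 at day 70. Its lowest array was day 45, at -0.36, where the coding probe of the same variant was at its highest.

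The variant 2 probe of Ntrk2 (chr17:11680049-11680108) read 1646 in the control, 1799 at day 21, 1492 at day 35, 1536 at day 45, 1899 at day 55 and 1792 at day 70. Its differences stayed between -0.14 and 0.21. The variant 3 probe (chr17:11734704-11734763) had the widest spread of all member probes well above background on every array. It read 535 in the control, 453 at day 21, 339 at day 35, 470 at day 45, 909 at day 55 and 494 at day 70. Day 35 was low at -0.66 and day 55 high at 0.76 (technical SD 0.09 each). Day 55 also lay 0.92 above the mean of days 45 and 70 on its own slide. These 2 values of the variant 3 probe are past 1.5-fold, although Ntrk2 as a gene is not, since it was counted from the downstream probe. This probe has 1 spot on each array, and its accession was not found in the current RefSeq table, so it was assigned to Ntrk2 by symbol.

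Both probes of Ntrk3, the TrkC gene, gave the same order of arrays at the low end. The probe with the higher mean (chr1:133925530-133925589) read 7706 in the control, 6263 at day 21, 6614 at day 35, 7436 at day 45, 7433 at day 55 and 7203 at day 70. The coding probe read 2452 in the control, 1869 at day 21, 2170 at day 35, 2358 at day 45, 2424 at day 55 and 2294 at day 70. Day 21 was lowest and day 35 next lowest in both. The differences at day 21 were -0.30 and -0.39, each with a technical SD of 0.08, and those at day 35 were -0.22 and -0.18. Genes of like signal had SDs of 0.26 and 0.29 in their day 21 differences. At day 21, 19.1% of 13894 genes had a lower difference than the probe with the higher mean. From day 45 on, both probes lay between -0.10 and -0.02 of the control.

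Ngfr, the p75 receptor gene, was close to background. Its probe (chr10:84263082-84263141) averaged 14.2 in the control, 13.4 at day 21, 12.4 at day 35, 7.03 at day 45, 16.0 at day 55 and 10.5 at day 70. Day 55 alone counted as well above background, with all 9 of its usable spots, against 4 of 8 spots in the control and 0 of 10 at day 45. By its mean, day 55 was 1.13-fold above the control (log2 0.17), and no other difference is given. The control was not well above background, so this ratio of means is uncertain and is no firm minimum. That difference rests on signals near background and on the setting. It was 0.039 with outlier spots kept, 0.064 with normexp background correction, 0.64 with quantile normalization and 0.37 against the mean of the other arrays. The spots also overlap, running from 13.0 to 18.3 at day 55 and from 10.6 to 19.2 in the control.

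Sort1, the sortilin gene, was read by a pair of probes that gave different values at day 21. The probe with the higher mean (chr2:203930799-203930858) read 2578 in the control, 2183 at day 21, 3187 at day 35, 2951 at day 45, 2189 at day 55 and 2918 at day 70. Its low arrays were days 21 and 55, both at -0.24, and its high arrays were day 35 at 0.31, day 45 at 0.19 and day 70 at 0.18. The other probe (chr2:203927627-203927686) read 645 in the control, 760 at day 21, 688 at day 35, 671 at day 45, 626 at day 55 and 663 at day 70. It was highest at day 21, at 0.24, and between -0.04 and 0.09 afterwards. The direction of Sort1 at day 21 thus depends on the probe.

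**Figure D2:**
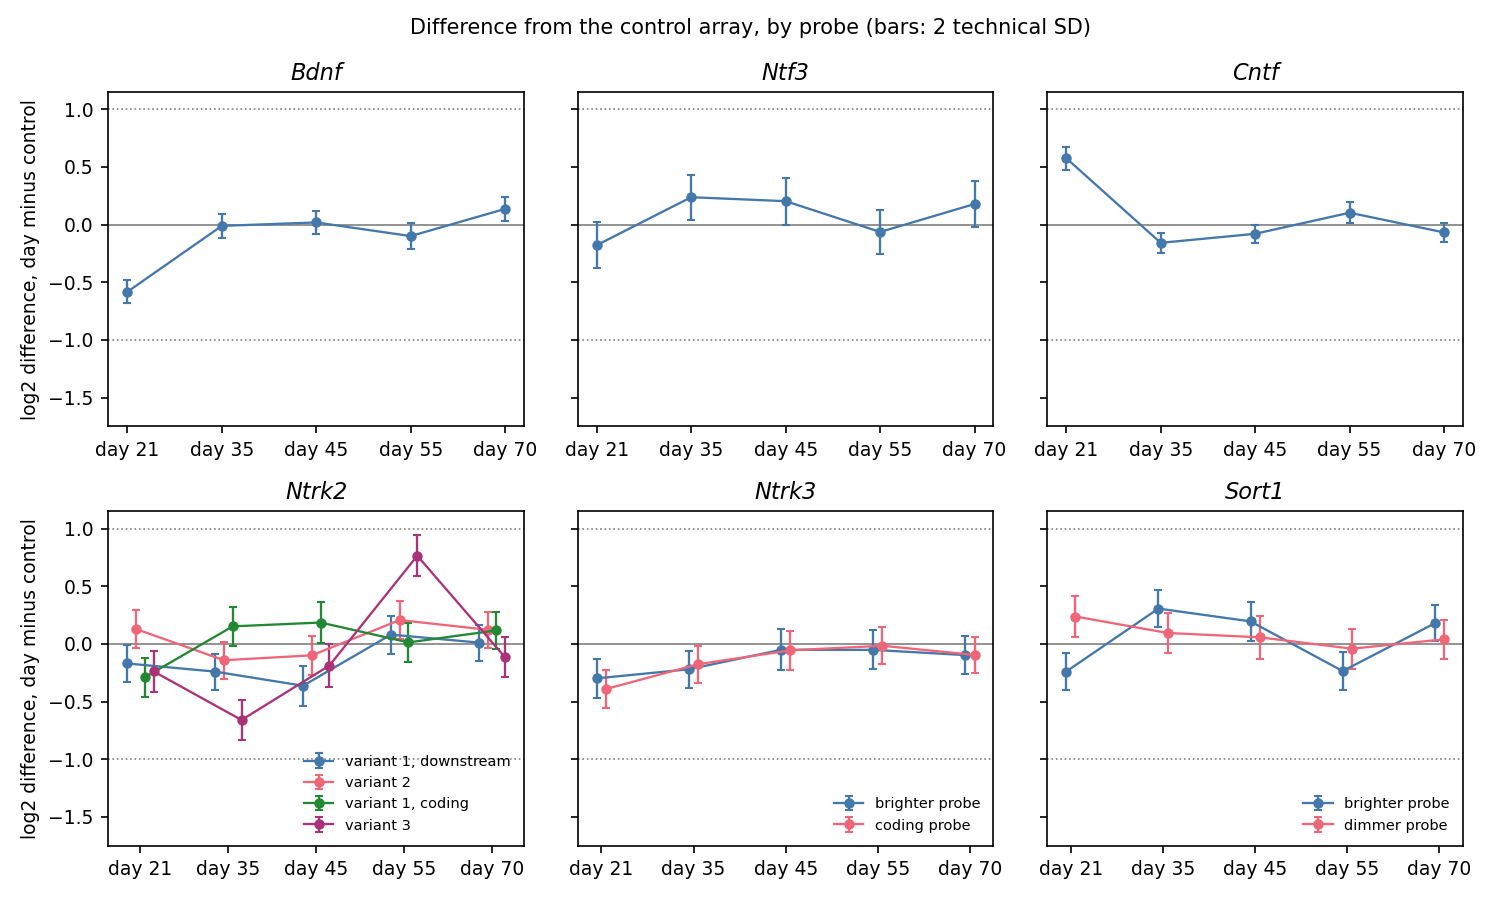
Points are log2 differences of each day from the control array for the probes of 6 members, in order of days, and bars span 2 technical SD either way, with dotted lines at 2-fold. Bdnf lies lowest and Cntf highest at day 21, the variant 3 probe of Ntrk2 is low at day 35 and high at day 55, and the 2 probes of Ntrk3 run together.

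Set side by side within the first slide, day 35 minus day 21 differed in sign between probes and members. It was 0.57 for Bdnf, 0.42 for Ntf3 and -0.73 for Cntf. For Ntrk2 it was 0.44 for the coding probe and -0.07, -0.27 and -0.42 for the downstream, variant 2 and variant 3 probes, whose highest array was day 55 in each case. It was 0.08 and 0.22 for the Ntrk3 probes, and 0.55 and -0.14 for the Sort1 probes.

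On the second slide, day 55 lay below the mean of days 45 and 70 for Bdnf (-0.18), Ntf3 (-0.25), both Sort1 probes (-0.42 and -0.09) and the coding probe of Ntrk2 (-0.14). It lay above that mean for Cntf (0.18), the other Ntrk2 probes (0.26, 0.19 and 0.92) and both Ntrk3 probes (0.02 and 0.06). Markers of hippocampal pyramidal cells summed to 35986 in the control, 30957 at day 21, 40820 at day 35, 37630 at day 45, 36608 at day 55 and 41899 at day 70. Their median difference was -0.30 at day 21, 0.01 at day 35, -0.06 at days 45 and 55 and 0.09 at day 70. Their part in the members' values was not tested.

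The genes most like each member were taken as those with the smallest root mean square difference of the 6 log2 values about their own means, among 12391 genes. Day 21 is among the values matched, so likeness on that day follows from the choice and is no separate result. Shared regulation was not tested. For Bdnf these were Map7d2 (0.047), Higd1a (0.047) and Susd2 (0.048), with day 21 differences of -0.53, -0.61 and -0.51. The genes closest to Cntf were Insyn2a (0.033), Plod1 (0.038) and Cdh29 (0.039), at 0.49, 0.56 and 0.61 at day 21. Closest to Ntf3 were Nudt16 (0.028), Hpca (0.030) and Chchd4 (0.031). Hpca encodes hippocalcin, a calcium sensor abundant in hippocampal neurons. Close to Ntrk3 were Hgsnat (0.0090) and Katnbl1 (0.014). For the downstream probe of Ntrk2 they were Stxbp5l (0.037), Slc24a5 (0.041) and Hapstr1 (0.046), and for Sort1 Fam163b (0.033), Pdlim7 (0.044) and Arl2 (0.044).

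Marker genes describe the tissue that these values come from. All 9 markers of hippocampal neurons in general were measured, and pyramidal cell and dentate granule cell markers were present, although Iyd of the pyramidal list was not well above background on any array. The summed microglial signal was 82073 at day 21 against 29419 in the control, and 15 of 15 markers were higher. At least 2-fold higher were 11 of them, against 3.6% of all genes. Astrocyte markers summed to 102382 at day 21 against 82288 in the control, with 9 of 11 higher, and Gfap read 1807 against 894. General neuronal markers summed to 33466 at day 21 against 40022 in the control and pyramidal cell markers to 30957 against 35986, with 8 of 9 measured markers lower in each list (medians -0.30 and -0.30). Bdnf at -0.58 lay below both medians, and Cntf at 0.58 lay above the astrocyte median of 0.25. Cntf was still within the spread of the astrocyte list. At day 21, 2 of its 11 markers were at least 2-fold higher, against 3.6% of all genes, and 2 lay below the control. How much of either value comes with these shifts was not tested.

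Markers of choroid plexus and meninges, which adjoin the hippocampus, were also unequal between arrays. Choroid plexus markers summed to 51694 at day 21, 26452 at day 35, 3033 at day 45, 3113 at day 55 and 44078 at day 70, against 3189 in the control. Meningeal markers summed to 8843 at day 21 against 3087 in the control. Bdnf was at -0.01 and Cntf at -0.16 at day 35, and at 0.14 and -0.07 at day 70, on the other arrays with high choroid plexus signal. Day 21 is the array on which microglial, meningeal and choroid plexus markers were all high. The part of this tissue in the values of Bdnf and Cntf was not tested, since tissue mix and day cannot be told apart here.

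**Figure D3:**
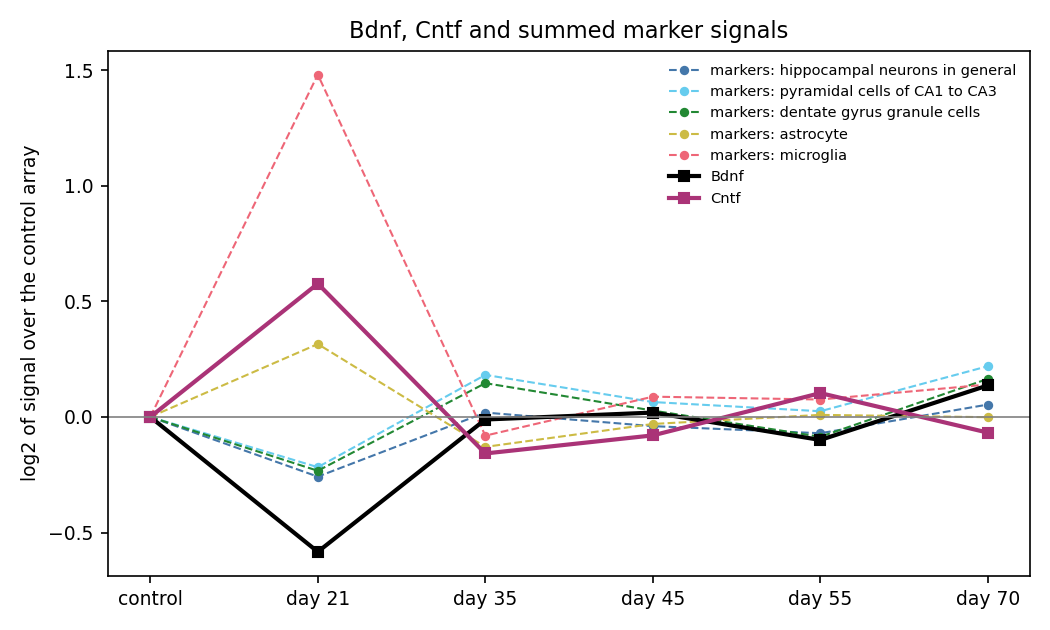
Lines give the log2 ratio of each array's signal to the control array for Bdnf and Cntf (squares) and for the summed signal of 5 marker lists (dots), by array. At day 21 Bdnf and the neuronal lists lie below the control, with Bdnf lowest, and Cntf and the astrocyte and microglial lists above it. From day 35 on all lines lie between -0.16 and 0.22.

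The list of other ligands held 15 genes, of which 14 had a difference at day 21 and 13 later. Beside ligands of these families it held factors from outside them, namely Igf1, Fgf2, Vegfa, Manf and Cdnf. Their medians were -0.01, -0.06, -0.11, 0.01 and -0.14 in order of days. Igf1, a growth factor that activated microglia also make, read 4839 at day 21 against 768 in the control, and 738.6 to 837 on the later days. Its second probe gave 2.53 at day 21, next to 2.65 for the first. Osm, encoding the cytokine oncostatin M, was near the control at days 21 and 35 (-0.13 and -0.19) and at -1.50, -1.17 and -1.24 on the 3 arrays of the second slide. Cdnf, a factor that protects dopamine neurons, read 73.9 at day 35 and 104 at day 55 against 275 in the control (-1.89 and -1.40). Ntf4 was well above background at day 21 only, at least 1.93-fold above the control. Igf1, from outside these families, was the 1 gene of 14 at least 2-fold higher at day 21, and 0 were lower. The shares of all genes were 3.6% higher and 1.88% lower.

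Of 19 other receptors, 17 had a difference. At day 21 their median was -0.25, against -0.07 over all genes, with 11 of 17 below the control. At least 2-fold lower were 2 of the 17, against 1.88% of all genes, among them Gfra4, a co-receptor of the GDNF family. On the days after 21 the receptor medians were -0.02, -0.14, -0.02 and -0.15. Gfra4 was at least 2.85-fold below the control at day 21 and at -1.13 at day 45. Osmr, the oncostatin M receptor gene, was below the control at days 55 and 70 by bounds of -1.13 and -1.08, its signal there being at background. Cntfr, which binds CNTF, was at -0.45 at day 21 and at -0.75 at day 70, and Lifr, its signalling partner, was lowest at day 45, at -0.70.

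**Figure D4:**
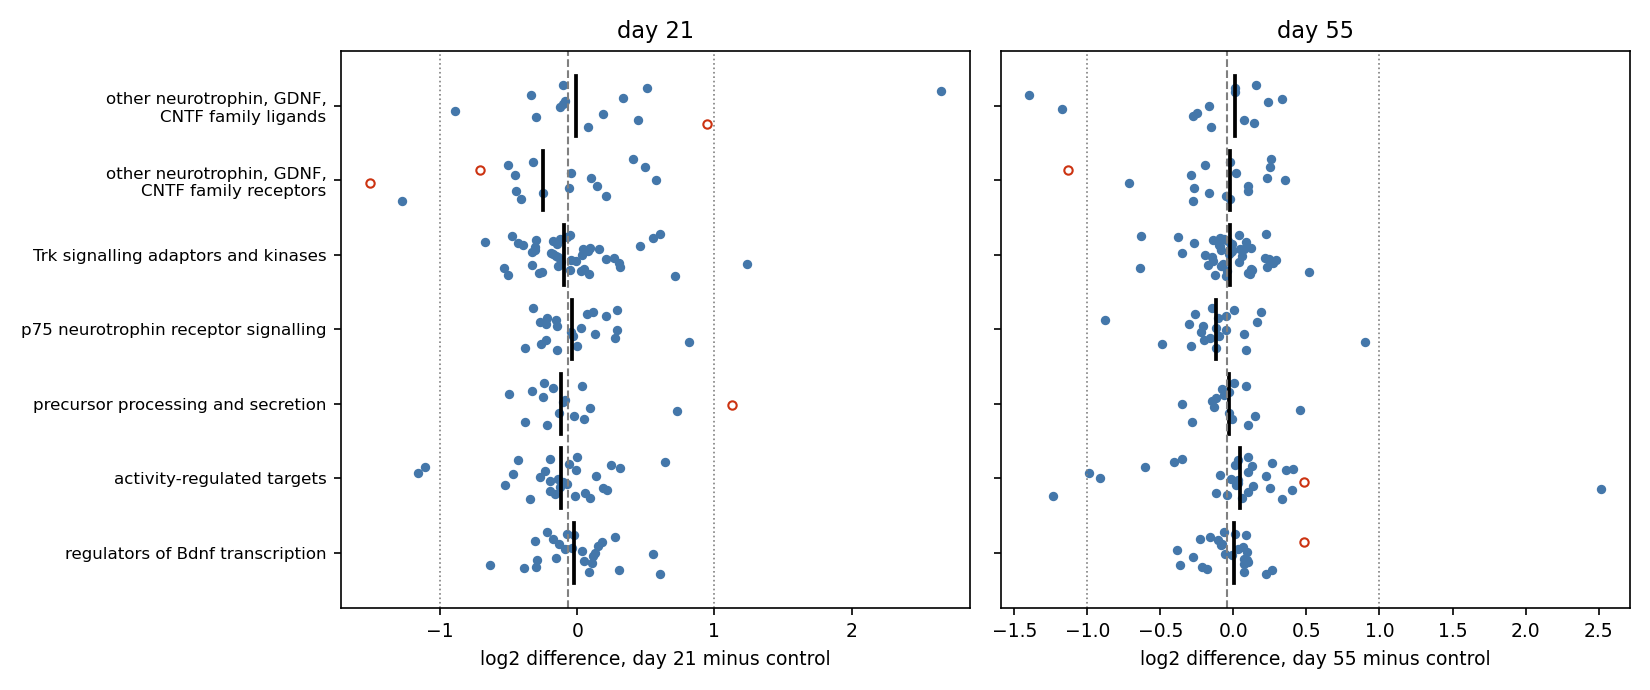
Each point is a gene of the 7 pathway lists, placed by its log2 difference from the control at day 21 (left) and day 55 (right); open red circles are bounds, black bars list medians, the dashed line the median of all genes and dotted lines 2-fold. Most genes lie within 2-fold on both days, with Igf1 to the far right at day 21 and Egr3, by one of its probes, at day 55.

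Downstream of the Trk receptors, 44 of 45 listed adaptors and kinases were on the arrays and all 44 were measured. Medians were -0.10 at day 21, 0.01 at day 35, -0.05 at day 45, -0.02 at day 55 and 0.05 at day 70. Sh2b2, an adaptor of receptor tyrosine kinases, read 362 at day 21 against 153 in the control (1.24), and Frs3, an adaptor of Trk and fibroblast growth factor receptors, read 184 at day 70 against 31.2 in the control (2.56). No other gene of the list reached 2-fold on any day. The shares of all genes at least 2-fold higher were 3.6% at day 21 and 0.664% at day 70. Gab1, a docking protein, ranged from -0.99 at day 45 to 0.42 at day 35, and Rps6ka3, a kinase that phosphorylates CREB, lay between -0.82 and -0.48 by one probe and between -0.08 and 0.10 by the other. Among 22 genes of p75 signalling on the arrays, Prdm4, a zinc finger protein that binds p75, was the sole gene past 2-fold. It was at -1.03 on day 45, when 5.74% of all genes were at least 2-fold lower. Ripk2, a kinase in the same list, was above the control on all 5 days (0.27 to 0.90), and Traf4, an adaptor, was below it on all 5 (-0.70 to -0.26).

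The proteases and secretory proteins that process precursors had medians between -0.12 and 0.07. Mmp7, a protease that can cleave neurotrophin precursors, was well above background at day 21 only and at least 2.18-fold above the control. Plat, the tissue plasminogen activator gene, was at 0.73 at day 21 and 0.46 at day 55, and Pcsk2, a prohormone convertase gene, at -0.38 and -0.28. Serpini1, which encodes an inhibitor of that activator, lay between -0.35 and -0.10 by one probe and between -0.25 and -0.02 by the other. Regulators of Bdnf transcription had 0 genes past 2-fold on each day, with medians from -0.09 to 0.00. The shares of all genes past 2-fold by day are given with the members. Crebbp, a coactivator that works with CREB, was below the control on all 5 days (-0.82 to -0.36). Rest, a repressor of neuronal genes, was at 0.55 at day 21 and -0.91 at day 45, and Dnmt3a, a DNA methyltransferase gene, was lowest at day 45, at -0.81.

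Activity-regulated genes, many of which are induced by BDNF in neurons, had medians of -0.12, -0.01, -0.12, 0.05 and -0.04. At day 21, 2 of the 28 measured genes were at least 2-fold lower, Dusp1 at -1.16 and Ier2 at -1.11, against 1.88% of all genes. Dusp1, a phosphatase of MAP kinases, stayed at or below -0.69 on every later day, and Ier2, an early response gene, was at -0.48, -0.38, -0.60 and -1.08. Fosb read 1057 at day 21 and 781 at day 35 against 1069 in the control, and 371, 455 and 437 at days 45, 55 and 70. Arc, which encodes a postsynaptic protein, was at -0.35 at day 21 and 0.33 at day 55, and Vgf, a secreted peptide precursor that BDNF induces, stayed between -0.14 and 0.08. Egr3 gave 2.52 at day 55 by the probe with the higher mean and -0.53 by its other probe, so its direction on that day depends on the probe.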

How the data were processed

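Hippocampal RNA of 6 groups was measured on 1 array each. Each array has 1 deposited scanner output, whose software, per the file headers, was Agilent Feature Extraction 10.7.3.1, the array design 028282 and the build of probe positions rn4. Each deposited intensity is a spot's processed signal, with local background subtracted and no scaling between arrays, per the file headers. A table of the authors' deposited intensity values for 41507 spots served as an alternative, and nothing in the labels says how it was made. Its medians were 298.0 to 298.4 and its 75th percentiles 1432.0 to 1432.5 by array, so its columns look quantile normalized.

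Spots marked as outliers were left out, 346 to 470 per array. The log2 of the deposited signal was scaled by the array's 75th percentile over non-control spots, and spots of a probe were averaged. The arrays held 42877 such spots and 30367 probes, of which 1390 were printed 10 times, with a median SD over spots of 0.0536 to 0.0758 log2 units by array. Probes were named through RefSeq's current rat table by accession (17328), symbol (2632) or synonym (717), 130 kept the file's name and 9560 had none. A gene was read from its probe with the highest mean over the arrays. A difference was formed where at least 1 array of the pair was well above background. A dim value on the other array was raised to the lowest signal well above background, or kept if higher. The difference is then marked as a bound, though with a kept value it is the plain ratio. A fold of 2 was the limit for counts, as a ratio of deposited signals after scaling. The number of arrays, 1 per group, limits the precision, so p-values and standard errors between animals or pools were not computed. The technical SD covers spots only. Of all spots, 74.5 to 80.2% were well above background. The counting was tested on simulated data.

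The members and lists were chosen with earlier results of these data known. The lists were other ligands, other receptors, Trk adaptors and kinases, p75 signalling, precursor processing, activity-regulated targets, regulators of Bdnf transcription, and 12 lists of cell type markers. From each pathway list the genes past 2-fold on any day and the 3 with the largest mean absolute difference were named. Ntf4, Arc, Vgf and Gfap were named after their values were seen. A few genes that this rule names, and 1 marker list, are not reported here. Markers of the lists not described above gave summed signals at day 21, as a fold of the control, of 1.14 for oligodendrocytes, 0.87 for endothelium with pericytes, 1.16 for red blood cells, 1.05 for thalamus with striatum and 0.85 for dentate granule cells. Alternatives were normexp background correction (limma 3.58.1, R 4.3.3), quantile and median scaling, the percentile over probes detected on all arrays, the authors' values, other filters on dim probes, the mean of a gene's probes, outlier spots kept, the mean of the other arrays as baseline and a limit of 1.5-fold. Tables were made with Python 3.11.15, numpy 2.4.6 and pandas 2.3.3.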

Additional observations from a re-analysis of the deposited data

How the results depend on the processing

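No paired analysis was possible because each group has 1 array, and for the same reason no array could be left out. Of 31 member differences, 22 kept their sign in all of the 10 settings that give a value. Bdnf at day 21 ranged from -0.62 to -0.41 and Cntf from 0.50 to 0.62, to either side of 1.5-fold. For Ngfr the filter to genes measured on both arrays gave no value. Among 309 alternative values 64 moved by more than the technical SD and 245 did not. That limit is narrower for the probes printed 10 times, so their values count as moved more readily. The count of members past 2-fold stayed at 0 in the other settings. Without filter and floor it was 1 lower at day 21, 2 at day 45 and 1 at day 70, where Gdnf or Ngfr enter without being well above background. The members' median at day 45 was 0.078 with the authors' values, 0.11 with median scaling and 0.11 against the other arrays, so its direction is not settled. It was 0.17 at day 70 with median scaling, 0.049 at day 55 against the other arrays, and -0.18 at day 35 and -0.028 at day 70 without filter.

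Counts of all genes depended on the setting, given here in order of days 21, 35, 45, 55 and 70. The counts higher and then lower were 500, 62, 82, 91 and 92 and 261, 157, 789, 692 and 923. Under quantile normalization they were 580, 114, 200, 188 and 227 and 276, 134, 302, 417 and 406, which shifts the split between higher and lower. With normexp they were 239, 13, 16, 29 and 39 and 28, 36, 105, 74 and 125. With the authors' values they were 368, 38, 68, 73 and 74 and 114, 67, 144, 171 and 189. For genes well above background on both arrays they were 376, 22, 31, 49 and 32 and 140, 84, 463, 444 and 558. Without filter they were 777, 200, 185, 346 and 237 and 744, 510, 1948, 1389 and 1895. Against the mean of the other arrays they were 800, 324, 98, 103 and 115 and 13, 25, 154, 69 and 156. At 1.5-fold they were 1074, 210, 164, 235 and 191 and 750, 589, 1743, 1539 and 1848. The cause of these differences was not tested, beyond the fewer or more genes that each filter and limit admits. Signal over background limits Gdnf and Ngfr.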
